A study of Mus musculus with 6 samples.

Results

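Precursor genes of 4 signalling peptides, Tac1, Nppc, Calcb and Penk, were followed through the cells of mouse carcinomas. They were taken by symbol from 32285 genes in the table. All 4 were found, and each had well over the 50 unique molecular identifiers (UMIs, counts of tagged RNA molecules) asked of a gene here. They were picked because they led cell states in these same cells, so their levels by state are a description without a test.

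The tumors were of MOC-2, labelled HNSCC, a line from a mouse squamous cell carcinoma of the mouth. Male mice received 100000 of its cells under the skin. There were 3 tumors injected with vehicle and 3 injected with an agent, all taken 24 h later. The treatment protocol lists several immune-active agents and metabolic inhibitors without saying which were given. Cells that a viability dye left unstained were sorted, tagged by tumor, pooled and sequenced from the 3′ end of each RNA. No label ties a tag to a tumor, so vehicle and treated tumors were not compared. The cell barcodes carry 6 suffixes, and each of these 6 barcode sets had a tag of its own, the largest in 14814 of 14818 cells. The sets thus follow the 6 tags, but which tumor each is, and its group, is not known, so their values are given singly. MOC-2 is a single line, and its growth under the skin is not growth in the mouth.

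Peptide precursors are made as long proteins that are cut, trimmed and often amidated before release. Tac1 encodes the precursor of the tachykinins substance P and neurokinin A, which act on tachykinin receptors on nerves, vessels and immune cells. Nppc encodes C-type natriuretic peptide, which acts on the guanylyl cyclase receptor Npr2 and is cleared by Npr3. Calcb encodes a calcitonin gene-related peptide, a vasodilator that binds Calcrl paired with Ramp1. Penk encodes proenkephalin, the source of the enkephalins, which bind opioid receptors. Tac1, Calcb and Penk are best known from neurons, and Nppc from endothelium and growth plate cartilage.

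On mouse build mm10 with the GENCODE M21 annotation, Tac1 (ENSMUSG00000061762) lies on chromosome 6 from 7554879 to 7565834 on the plus strand. Nppc (ENSMUSG00000026241) lies on chromosome 1 from 86666291 to 86670571 on the minus strand. Calcb (ENSMUSG00000030666) lies on chromosome 7 from 114718643 to 114723365 on the plus strand. Its neighbour and close relative Calca lies from 114631478 to 114636357 on the minus strand. Penk (ENSMUSG00000045573) lies on chromosome 4 from 4133531 to 4138819 on the minus strand. The antisense gene A830012C17Rik overlaps Penk and had 11 UMIs in all. Of the 50-base words in the last 500 bases of Calcb transcripts, 1.10% also occur in Calca. The other 3 precursor genes shared none of their words with another gene, so reads of these genes are rarely ambiguous.

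Tac1 and Nppc were highest in the same clusters of cells, so the bases before their starts are shown, from RefSeq on GRCm38.p6. Of the 250 bases before the RefSeq start of Tac1, 182 lie inside an annotated Tac1 exon and are not shown. Capitals mark TGACG, the core of a cyclic AMP response element, TGACNTCA, the full site with 1 base open, and CACGTG, an E-box, on either strand.
Tac1, chr6:7554811-7554878, plus strand: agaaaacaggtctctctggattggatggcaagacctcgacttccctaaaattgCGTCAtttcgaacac
Nppc, chr1:86670574-86670823, minus strand: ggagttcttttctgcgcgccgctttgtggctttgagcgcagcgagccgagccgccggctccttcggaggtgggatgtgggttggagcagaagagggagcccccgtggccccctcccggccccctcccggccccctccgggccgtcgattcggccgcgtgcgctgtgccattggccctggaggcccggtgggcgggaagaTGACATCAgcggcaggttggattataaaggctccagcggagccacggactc
The Nppc stretch holds TGACATCA from 51 to 44 bases before the start, and TATAAA, a core promoter element, from 29 to 24 bases before it. The Tac1 stretch holds CGTCA, the reverse complement of TGACG, from 197 to 193 bases before its RefSeq start. A further CGTCA from 43 to 39 and CACGTG from 61 to 56 bases before it lie in the stretch not shown. TGACG was in 17.8% of 32851 mouse promoter windows of the same length, TGACNTCA in 7.49%, CACGTG in 6.02% and TATAAA in 12.4%. TGACG is contained in the full site TGACGTCA, which 1.55% of windows held. These matches describe letters and show no binding.

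The matrix held 14818 cells in barcode sets of 901 to 4077 cells, with 141434361 gene UMIs and a median of 7654 UMIs per cell. No barcode letters occurred in more than 1 set. After filtering, 13747 cells formed 25 clusters. Mesenchymal carcinoma-like clusters were named by markers, among them Xist, the RNA of the inactive X chromosome, where 4 Y-linked genes were under 10 CPM (UMIs per 1000000 gene UMIs), since the hosts are labelled male. These cells numbered 8788 in 10 clusters, with Xist at 1091 and Y-linked genes at 0.719 CPM. A cluster of 218 of them, led by Rps26 and Nefl, had Xist at only 18.1 CPM, below the 51.2 CPM of macrophage or monocyte-like cells, and took its name from other markers. Epithelial carcinoma-like cells numbered 688 in 2 clusters, led by Epcam and Krt7 or by Krt5 and Krt14. Fibroblast-like cells, with Xist at 365 CPM and the Y-linked genes at 124, and T-like cells, at 337 and 244 CPM, held both. Values for these classes are therefore also given with cells split by a Xist UMI.

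The precursor genes divided between the carcinoma-like states. Tac1 and Nppc were mostly in the mesenchymal state, with 94.6% and 94.7% of their UMIs, where that class held 80.3% of all gene UMIs. Calcb was mostly in the epithelial state, with 85.6% of its UMIs, where that class held 5.47% of all. Penk had 86.2% of its UMIs in the mesenchymal class, close to the share of all UMIs, and among whole classes its level was highest in T-like cells. Levels are CPM of summed UMIs with exact 95% Poisson intervals, which cover counting error only. They are compared between cells for a given gene and not between genes.

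**Figure D1:**
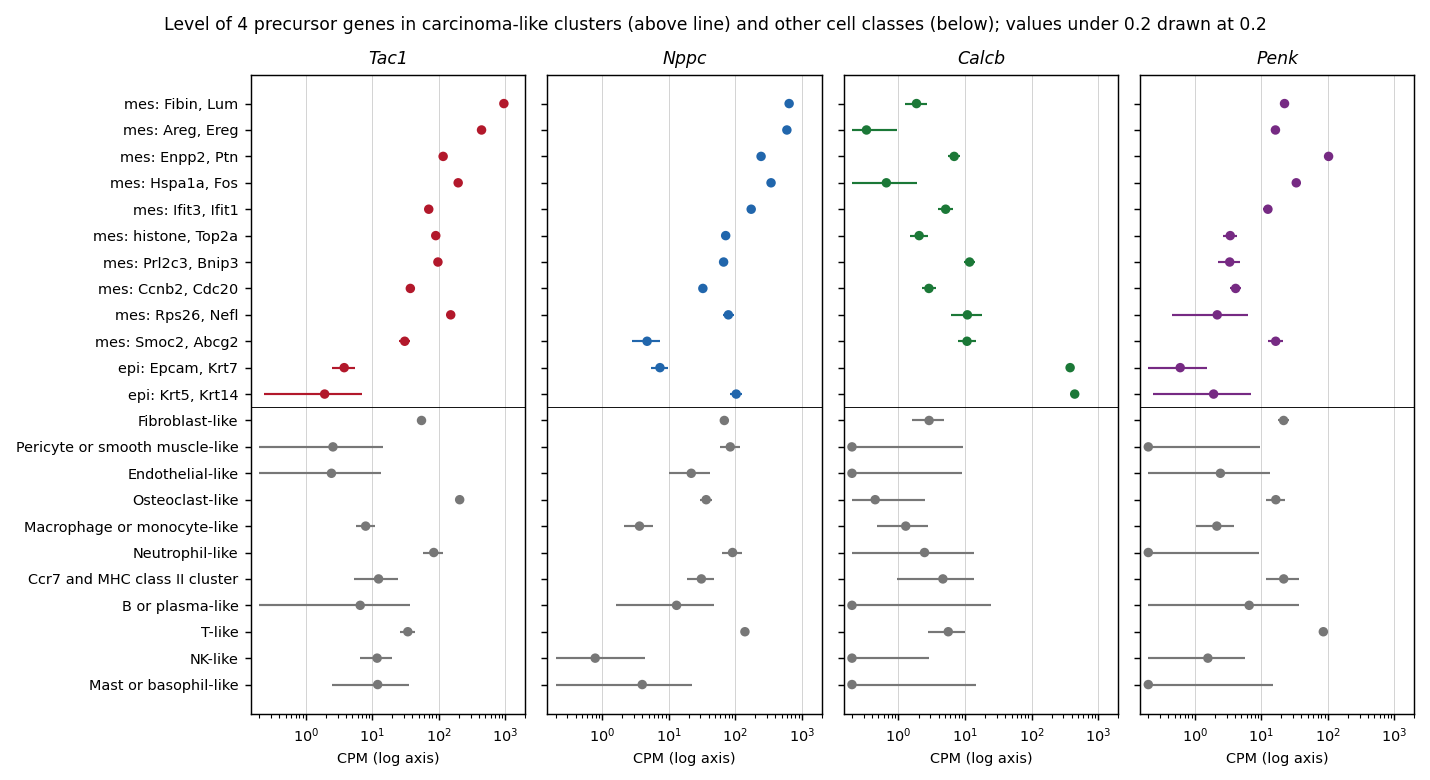
Level of each gene (CPM, log axis) in 12 carcinoma-like clusters, named by leading genes (coloured, mes for mesenchymal and epi for epithelial), and in 11 other classes (grey), with exact 95% Poisson intervals. Tac1 and Nppc are highest in the cluster led by Fibin and Lum, Penk in that led by Enpp2 and Ptn, and Calcb in both epithelial clusters.

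Tac1, the tachykinin precursor, stood at 233 CPM in mesenchymal carcinoma-like cells (231 to 236), from 26308 UMIs. It stood at 3.52 CPM in epithelial carcinoma-like cells (2.32 to 5.12), from 27 UMIs. NK-like cells, which should lack it, had 11.8 CPM (6.60 to 19.4). By cluster, the epithelial level was below that of this background lineage. Where cells were gated by their own marker counts, it was 49.0 CPM, above it, and the mesenchymal level was 268 CPM.

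Within the mesenchymal state Tac1 was uneven. It reached 949 CPM (934 to 964) in 1303 cells led by Tac1 itself and then by Fibin, Lum, Tnn and Igfbp3, genes of secreted and matrix proteins. It reached 438 CPM (424 to 452) in 578 cells with Areg, Nppc, Star, Csf3 and Ereg among their leading genes, which include 2 EGF receptor ligands. The lowest mesenchymal value was 30.6 CPM, in the cluster with Smoc2 and Abcg2 among its leading genes. The cluster led by the mitotic genes Ccnb2 and Cdc20 had 37.2 CPM. A cluster led by histone genes had 89.7 CPM. Summed mitotic genes, among them Cdk1 and Top2a, stood at 700 CPM in the former and 1845 CPM in the latter.

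Few cells carried most of the Tac1 RNA. Thinned to 2000 UMIs per cell, 13.1% of mesenchymal carcinoma-like cells had a Tac1 UMI (12.4 to 13.8%, exact binomial), against 25.8% without thinning and 2.09% of thinned NK-like cells. Median depth was 11181 UMIs in the former and 2770 in the latter. The tenth of mesenchymal cells with the most Tac1 held 91.3% of its UMIs. The highest cell had 712 Tac1 UMIs of 27579 in all. In the Fibin and Lum cluster 40.4% of thinned cells had a Tac1 UMI.

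Barcode sets differed widely. In sets 1 to 6, Tac1 in mesenchymal carcinoma-like cells stood at 492, 156, 40.5, 181, 90.6 and 216 CPM. Set 1 was highest and set 3, with 155 such cells, lowest. Set 1 also gave 45.0% of the cells in the Fibin and Lum cluster. Without set 1, the level fell from 233 to 151 CPM over all mesenchymal cells and from 949 to 631 CPM in that cluster. The Areg and Ereg cluster had 331 CPM without set 1, still below the Fibin and Lum cluster.

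**Figure D2:**
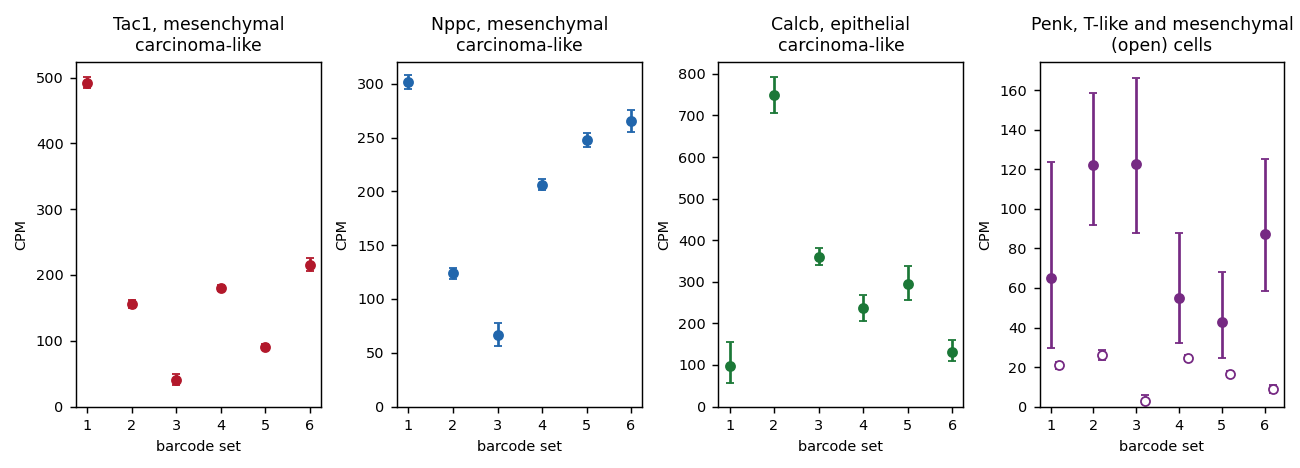
Level (CPM, from 0) of each gene in each of the 6 barcode sets, in the class named above each panel, with exact 95% Poisson intervals. For Penk, filled points are T-like and open points mesenchymal carcinoma-like cells; filled points lie above open points in all 6 sets, and Tac1 is highest in set 1.

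Nppc, the C-type natriuretic peptide precursor, stood at 226 CPM in mesenchymal carcinoma-like cells (224 to 229). In epithelial carcinoma-like cells it stood at 20.5 CPM, but 105 of those 157 UMIs came from a single cell, without which the level was 6.80 CPM. Gates on single cells gave 31.6 CPM. Its 2 highest clusters were those of Tac1, with 646 CPM (634 to 659) in the Fibin and Lum cluster and 598 CPM (582 to 614) in the Areg and Ereg cluster. These differed less than they did for Tac1. Without set 1, Nppc was at 552 CPM (537 to 567) in the Fibin and Lum cluster and 539 CPM (522 to 556) in the Areg and Ereg cluster. Without set 5 the order of these clusters was reversed, at 621 CPM (608 to 634) and 622 CPM (602 to 643).

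Other mesenchymal clusters held Nppc as well. It reached 346 CPM (329 to 363) in a cluster led by Hspa1a, Btg2 and Fos, genes of heat shock and early response, whose median depth was 4523 UMIs. It reached 245 CPM in the Enpp2 and Ptn cluster and 174 CPM in a cluster led by the interferon-induced genes Ifit3 and Ifit1. Tac1 in these 3 clusters was at 195, 116 and 70.4 CPM. Both genes passed 100 CPM in the Fibin and Lum, Areg and Ereg, Hspa1a, and Enpp2 and Ptn clusters. In the Rps26 and Nefl cluster Tac1 was at 151 CPM and Nppc at 78.9 CPM. The Smoc2 and Abcg2 cluster was lowest for Nppc, with 4.73 CPM (2.85 to 7.39).

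Thinned to 2000 UMIs, 16.5% of mesenchymal carcinoma-like cells had a Nppc UMI (15.8 to 17.3%), against 29.7% unthinned and none of 239 NK-like cells (0 to 1.53%). In sets 1 to 6 the Nppc level was 301, 124, 66.2, 206, 247 and 265 CPM. Set 3 was again lowest, but set 5, among the lower sets for Tac1, was among the higher for Nppc. In the Fibin and Lum cluster, set 5 had the highest Nppc level, 1045 CPM, and a Tac1 level of 326 CPM.

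Tac1 and Nppc were found in the same cells more often than the product of their shares gives. Among 8601 mesenchymal carcinoma-like cells thinned to 2000 UMIs, 1123 had Tac1, 1422 had Nppc and 407 had both. That was 36.2% of Tac1 cells and 28.6% of Nppc cells, where the product of shares gives 186 cells, a ratio of 2.19. Within single clusters the ratio differed. It was 1.18 in the Fibin and Lum cluster, where 240 cells had both against 203 from the product. It was 0.805 in the cluster led by Ccnb2 and Cdc20, from 2 cells. In the other 6 clusters examined it ran from 1.502, in the Areg and Ereg cluster, to 3.17, in the cluster led by histone genes. These came from 42 and 16 cells with both.

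Calcb, the calcitonin gene-related peptide precursor, stood at 389 CPM in epithelial carcinoma-like cells (375 to 403) and at 4.04 CPM in mesenchymal ones (3.68 to 4.43). The mesenchymal level ran from 0.736 to 31.2 CPM over the barcode sets, highest in set 3, and was 12.9 CPM with clusters drawn at a finer resolution. It was at 380 CPM (365 to 395) in the 628 cells led by Epcam and Krt7 and at 446 CPM (406 to 488) in the 60 cells led by Krt5 and Krt14, keratins of basal cells. Of the latter, 53 came from set 3, and the other 7 cells had 838 CPM. NK-like, endothelial-like and pericyte-like cells had no Calcb UMI, with upper interval limits of 2.90, 8.95 and 9.43 CPM.

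Calcb was found in a large minority of epithelial carcinoma-like cells. Thinned to 2000 UMIs, 30.6% of epithelial carcinoma-like cells had a Calcb UMI (27.2 to 34.2%), against 45.9% unthinned and none of the NK-like cells. In the Krt5 and Krt14 cluster the thinned share was 51.7%. In sets 1 to 6 the level was 97.4, 749, 360, 236, 296 and 132 CPM, with only 17 epithelial cells in set 1. Set 2 was highest, and its absence lowered the level to 294 CPM. Where cells were gated by their own marker counts and not by cluster, the epithelial level was 253 CPM.

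In the mesenchymal state the highest Calcb levels were 11.7 CPM, in the hypoxia-related cluster led by Prl2c3 with Bnip3, and 10.9 and 10.7 CPM in the Rps26 and Smoc2 clusters. Few sets carried these values. In the first, set 3 had 142 CPM from 20 cells and set 2 had 36.3 CPM, against 9.13 CPM or less in the others. The Rps26 cluster had 15 Calcb UMIs in 4 cells, 14 of them in sets 3 and 6, and in the Smoc2 cluster 39 of 43 were in set 2. Calcb and Tac1 were found together in 2 thinned mesenchymal cells, where the product of shares gives 7.05. No thinned mesenchymal cell had both Calcb and Penk, where it gives 1.44.

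All cells of the carcinoma-like clusters were also ordered by their own epithelial marker UMIs. Clusters thus set which cells entered but not their order. Levels differed from bin to bin. Calcb stood at 2.82 CPM in cells with under 5 epithelial marker UMIs per 10000, at 11.1 from 10 to 20, at 45.8 from 20 to 40, at 237 from 40 to 80 and at 522 CPM at 80 or more. Tac1 ran the other way, from 359 to 2.66 CPM, and Penk from 35.4 to 0.666 CPM. Cells with 20 to 40 marker UMIs per 10000 had Calcb at 45.8, Tac1 at 114 and Nppc at 108 CPM, each between its end values. The bins mix the classes, with 1.02% of cells from epithelial clusters in the lowest bin, 14.5% from 20 to 40, 65.9% from 40 to 80 and 100% in the highest.

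Ordered by 6 matrix genes, among them Col1a1, Postn and Sparc, Penk was higher at each step, from 2.50 CPM below 10 matrix UMIs per 10000 to 15.2 from 40 to 80 and 92.2 CPM at 160 or more. Nppc went from 16.2 to 598 CPM. Tac1 went from 15.4 to 471 CPM in the bin from 80 to 160 and was at 385 CPM (372 to 398) in the last. Of the lowest matrix bin, 28.0% of cells were from epithelial clusters, against 1.46 to 6.58% in the others. Cell depth also fell along this order, from a median of 11895 UMIs in the first bin to 7699 in the last, and its part in the trend was not tested.

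**Figure D3:**
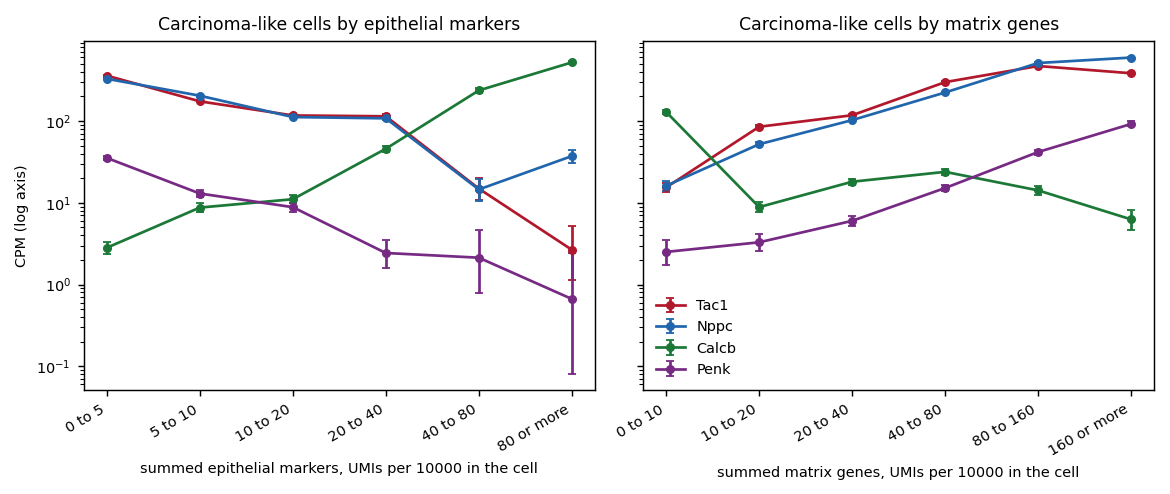
Level of each gene (CPM, log axis) in carcinoma-like cells binned by summed epithelial marker UMIs (left) or matrix gene UMIs (right) per 10000, with exact 95% Poisson intervals. Calcb climbs from 2.82 to 522 CPM with the epithelial markers, and Penk from 2.50 to 92.2 CPM with the matrix genes.

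Penk, the enkephalin precursor, had 2663 UMIs, the fewest of the 4 genes, in 756 cells. In mesenchymal carcinoma-like cells it stood at 20.4 CPM (19.6 to 21.2), and in epithelial ones at 0.782 CPM (0.287 to 1.70). It was highest at 103 CPM (96.9 to 109) in the cluster led by Enpp2, a lysophospholipase, and Ptn, a growth factor, which also had the highest matrix gene level of the carcinoma-like clusters. In the Fibin and Lum cluster, highest for Tac1, Penk was at 22.3 CPM. In the Areg and Ereg cluster it was at 16.3 CPM.

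In the Enpp2 and Ptn cluster, sets 1 to 6 had 135, 119, 6.54, 114, 86.9 and 22.3 CPM of Penk. Sets 3 and 6 were low, set 3 with 28 cells. In set 1, a single cell held 118 Penk UMIs, where the next highest cell of the cluster had 38. Without set 1 the cluster had 95.4 CPM (89.3 to 102). The tenth of its cells with the most Penk held 91.4% of its Penk UMIs. The share of thinned cells with a UMI was 8.40% in that cluster and 2.67% (2.34 to 3.04%) over all mesenchymal carcinoma-like cells, against 0.418% of NK-like cells. In mesenchymal cells Penk was found with Nppc in 69 cells and with Tac1 in 57, at 1.81 and 1.90 times the product of shares. These ratios pool clusters that differ in Penk. For Nppc the ratio was 1.35 within the Enpp2 and Ptn, 1.25 within the Fibin and Lum and 1.31 within the Hspa1a cluster. For Tac1 it was 1.89, 1.54 and 0.323 in the same order, the last from 1 cell.

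At a fold of at least 4 over all other cells, 2 of the 4 genes passed in the Fibin and Lum cluster, Tac1 at 9.37-fold and Nppc at 4.85-fold, where 0.228% of 14474 genes did. In the Enpp2 and Ptn cluster Penk passed at 9.06-fold, where 0.871% of genes did. In epithelial carcinoma-like cells Calcb passed at 102.8-fold, where 2.81% of genes did. In mesenchymal carcinoma-like cells Tac1 and Nppc passed at 4.25-fold and 4.36-fold, where 0.801% did. In T-like cells Penk passed at 4.74-fold, where 5.11% did. The genes were chosen from this contrast, so nothing is read from these counts.

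Among whole classes Penk was highest in T-like cells, named by Cd3 and T cell receptor genes, with 85.5 CPM (73.1 to 99.5) from 168 UMIs, below the 103 CPM of the Enpp2 and Ptn cluster. NK-like cells, the closest lineage, had 1.57 CPM (0.190 to 5.68), from 2 UMIs. T-like cells in sets 1 to 6 had 65.3, 122, 122.5, 55.0, 42.5 and 87.4 CPM. In every set this was above the level in mesenchymal carcinoma-like cells. A cluster led by Ctla4 and Tnfrsf4, with the regulatory T cell factor Foxp3 among its leading genes, had 96.4 CPM (58.0 to 151), and the main T-like cluster had 84.3 CPM (71.3 to 99.0). The intervals of these clusters overlap.

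The T-like class held 73 cells with a Xist UMI, and the 4 genes differed sharply between these and the 489 cells without. In cells without a Xist UMI, Penk stood at 119.7 CPM (101.5 to 140.4), from 152 of the 168 UMIs, while Nppc was at 2.36 CPM (0.487 to 6.91) and Tac1 at 6.30 CPM. In cells with a Xist UMI, Penk was at 23.04 CPM (13.2 to 37.4), Nppc at 392 CPM (346 to 441) and Tac1 at 85.0 CPM. Of the 275 Nppc UMIs in T-like cells, 272 were thus in cells that also had Xist. Such cells had a median of 9225 UMIs, against 1827 in the others. Under a stricter cell filter Nppc in the whole T-like class, 243 CPM, passed that of mesenchymal carcinoma-like cells, 227 CPM.

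**Figure D4:**
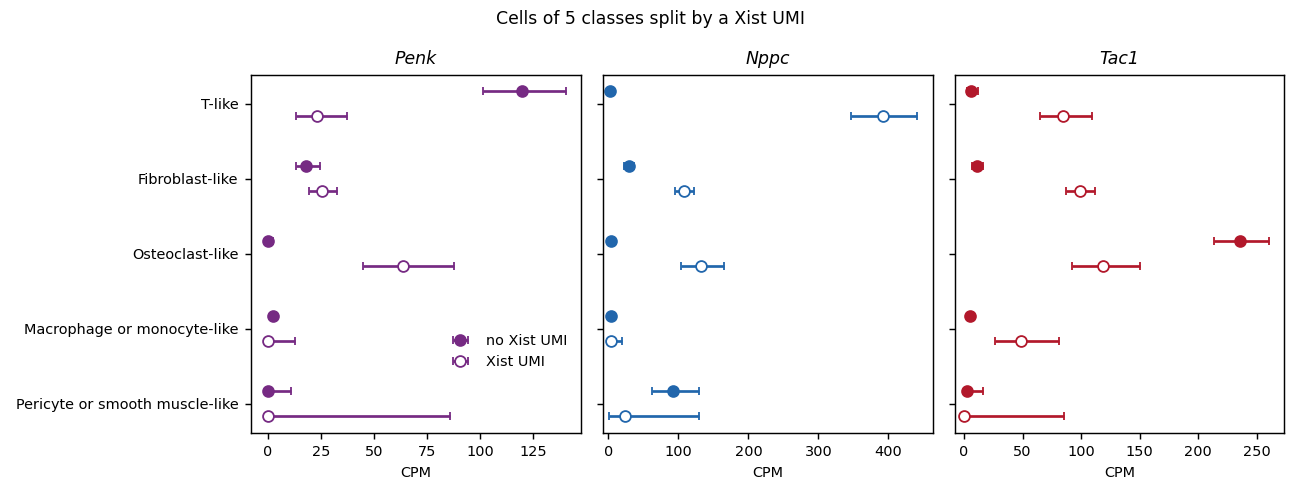
Level (CPM) of Penk, Nppc and Tac1 in 5 classes, for cells without (filled) and with (open) a Xist UMI, with exact 95% Poisson intervals. In T-like cells Penk is higher without Xist (119.7 against 23.04 CPM), and Nppc higher with it (392 against 2.36 CPM); the high Tac1 of osteoclast-like cells without Xist comes from 1 cell.

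Penk in T-like cells without Xist came from 32 cells, 6.54% of them, found in all 6 sets. The sets from 1 to 6 had 2, 5, 11, 3, 2 and 9 such cells, among 20, 114, 107, 49, 81 and 118. At least 5 Penk UMIs were seen in 8 cells, and the highest had 27 of 2787 UMIs. In the T-like class as a whole 6.74% of cells thinned to 2000 UMIs had a Penk UMI (4.10 to 10.3%).

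Cells with Penk are set beside the others for 15 T cell genes, which were chosen after the values were seen. Thinned to 1000 UMIs, Tnfrsf9, the costimulatory receptor 4-1BB, was in 19 of 31 Penk cells, or 61.3% (42.2 to 78.2%), and in 32.1% of 393 others (27.5 to 36.9%). Il2ra, the interleukin 2 receptor alpha chain, was in 45.2% (27.3 to 64.0%) against 20.9% (16.95 to 25.2%). Areg, the EGF receptor ligand amphiregulin, was in 38.7% (21.8 to 57.8%) against 16.0% (12.5 to 20.0%). Without thinning these shares were 87.5 against 49.0%, 65.6 against 35.2% and 43.8 against 21.0%. Foxp3 was in 6.45% (0.791 to 21.4%) against 4.58% (2.74 to 7.14%), with overlapping intervals, as for the other 11 genes. Of these, Cd4 was in 22.6% (9.59 to 41.1%) against 8.14% (5.64 to 11.3%). Gzmb, the protease granzyme B, was in 16.1% (5.45 to 33.7%) against 31.8% (27.2 to 36.7%), and Ifng, interferon gamma, in 6.45% against 10.7%. Unthinned, Cd4 was in 37.5 against 14.4%. Gzmb was then in 31.3 against 39.8%, at 514 against 1565 CPM, and Ifng in 12.5 against 19.5%. The Penk cells had a median of 2669 UMIs and the others 1786 before thinning. The intervals take cells as independent and leave out differences between barcode sets. All genes were not compared in this way, so whether these genes stand out was not tested.

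Pcsk1, the prohormone convertase that cuts proenkephalin, was itself highest in T-like cells, with 18.3 CPM (12.8 to 25.4) against 1.29 CPM (1.09 to 1.51) in mesenchymal carcinoma-like cells. Among T-like cells without Xist, 16 had a Pcsk1 UMI, and 9 of these also had Penk. Pcsk1 was thus in 28.1% of the 32 Penk cells (13.7 to 46.7%) and in 1.53% of the 457 without Penk (0.618 to 3.13%). Cells with both were in 4 sets, 5 of the 9 in set 6. Thinned to 1000 UMIs, Pcsk1 was in 3 of 31 cells and in 4 of 393.

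Fibroblast-like cells, named by collagen and matrix genes, held lower levels of Tac1 and Nppc than mesenchymal carcinoma-like cells, but not of Penk. Tac1 stood at 54.8 CPM, Nppc at 68.6 CPM and Calcb at 2.88 CPM. Penk stood at 21.6 CPM (17.7 to 26.2), against 20.4 CPM in mesenchymal carcinoma-like cells. Cells without a Xist UMI, 342 of 493, had Tac1 at 11.1 CPM (7.31 to 16.1), close to NK-like cells. Their Nppc was at 29.2 CPM (22.8 to 36.8), in 29 cells, and their Penk at 18.1 CPM (13.1 to 24.3), in 18 cells. Cells with a Xist UMI had Tac1 at 98.8 CPM and Nppc at 108 CPM, with Penk at 25.2 CPM (19.3 to 32.4). The intervals with and without Xist overlapped for Penk and did not for Tac1 and Nppc.

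Pericyte or smooth muscle-like cells, named by Rgs5, Acta2 and Abcc9, had Nppc and almost none of the other 3 genes. In 61 of 66 cells without a Xist UMI, Nppc stood at 92.0 CPM (62.9 to 130), from 32 UMIs in 11 cells, with at most 9 in any cell. Tac1 had 1 UMI in the class, and Calcb and Penk none. Endothelial-like cells had 9 Nppc UMIs, 8 of them in a single cell.

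A single cell set the Tac1 level of osteoclast-like cells, named by Ctsk, Acp5 and Mmp9. Their level was 205 CPM, of which 385 of 460 UMIs were in 1 cell, and 33.9 CPM without it. That cell had no Xist UMI and 2 Y-linked UMIs among 25183. Macrophage or monocyte-like cells had 7.93 CPM of Tac1, 3.64 of Nppc, 1.29 of Calcb and 2.14 of Penk. Neutrophil-like cells had 83.8 CPM of Tac1 and 91.2 CPM of Nppc, in a class whose Xist stood at 813 CPM. The part of carcinoma RNA or doublets in these values was not tested.

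Of 11 related precursors, 3 reached 50 UMIs. Calca, which makes the alpha form of calcitonin gene-related peptide, followed Calcb in part: it stood at 149.9 CPM in epithelial (141 to 159) and 22.3 CPM in mesenchymal carcinoma-like cells. The epithelial clusters differed, though, with Calca at 173 CPM in the Epcam and Krt7 cluster and 1.92 CPM, 2 UMIs, in the Krt5 and Krt14 cluster, where Calcb was at 446 CPM. In the Fibin and Lum cluster Calca was at 51.1 CPM and Calcb at 1.87 CPM.

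Nppb, the B-type natriuretic peptide precursor, had 96.1% of its UMIs in carcinoma-like cells. It was higher in the epithelial than in the mesenchymal state, the reverse of Nppc. It stood at 144 CPM in epithelial (135 to 153) and 64.5 CPM in mesenchymal carcinoma-like cells. Among carcinoma-like clusters it was lowest, at 9.68 CPM, in the Enpp2 and Ptn cluster, where Nppc was at 245 CPM. It was highest, at 277 CPM, in the Krt5 and Krt14 cluster. Adm, the adrenomedullin precursor, was highest in fibroblast-like cells, 81.6 CPM, and endothelial-like cells, 80.1 CPM. The opioid precursors Pdyn and Pnoc had 0 and 1 UMI and Pomc 25.

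Of 17 receptors and partners, 10 reached 50 UMIs. The substance P receptor Tacr1 was in endothelial-like cells, at 51.0 CPM (31.6 to 77.9), from 21 of its 50 UMIs, while 26 were spread over 8788 mesenchymal carcinoma-like cells at 0.231 CPM. Tacr2 had 1 UMI and Tacr3 none. Npr2, the C-type natriuretic peptide receptor, was low throughout, at 4.95 CPM (3.17 to 7.36) in fibroblast-like and 0.391 CPM in mesenchymal carcinoma-like cells. The clearance receptor Npr3 stood at 6.98 CPM (6.50 to 7.48) in mesenchymal and 2.61 CPM in epithelial carcinoma-like cells. Npr1, which binds the other natriuretic peptides, was highest in endothelial-like cells, 31.5 CPM from 13 UMIs.

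For the calcitonin gene-related peptide receptor, Calcrl was highest in endothelial-like cells, 247.5 CPM (202 to 300.5), followed by pericyte-like cells, 66.5 CPM. Its partner Ramp1 was highest in pericyte-like cells, 86.9 CPM (60.2 to 121), and had no UMI in endothelial-like cells. Ramp2, with which Calcrl forms an adrenomedullin receptor, was at 512 CPM in endothelial-like cells. Pericyte-like cells were thus the class with both Calcrl and Ramp1 high. T-like cells without Xist had Ramp1 at 60.7 CPM (47.9 to 75.8) and Calcrl at 11.03 CPM.

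The classical opioid receptors Oprm1, Oprd1 and Oprk1, which the enkephalins bind to different degrees, had 1, 1 and 0 UMIs. Ogfr, a structurally unrelated receptor that binds Met-enkephalin, was in all classes, with 62.1 CPM (55.2 to 69.7) in macrophage or monocyte-like, 38.2 CPM in T-like and 26.4 CPM in mesenchymal carcinoma-like cells.

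**Figure D5:**
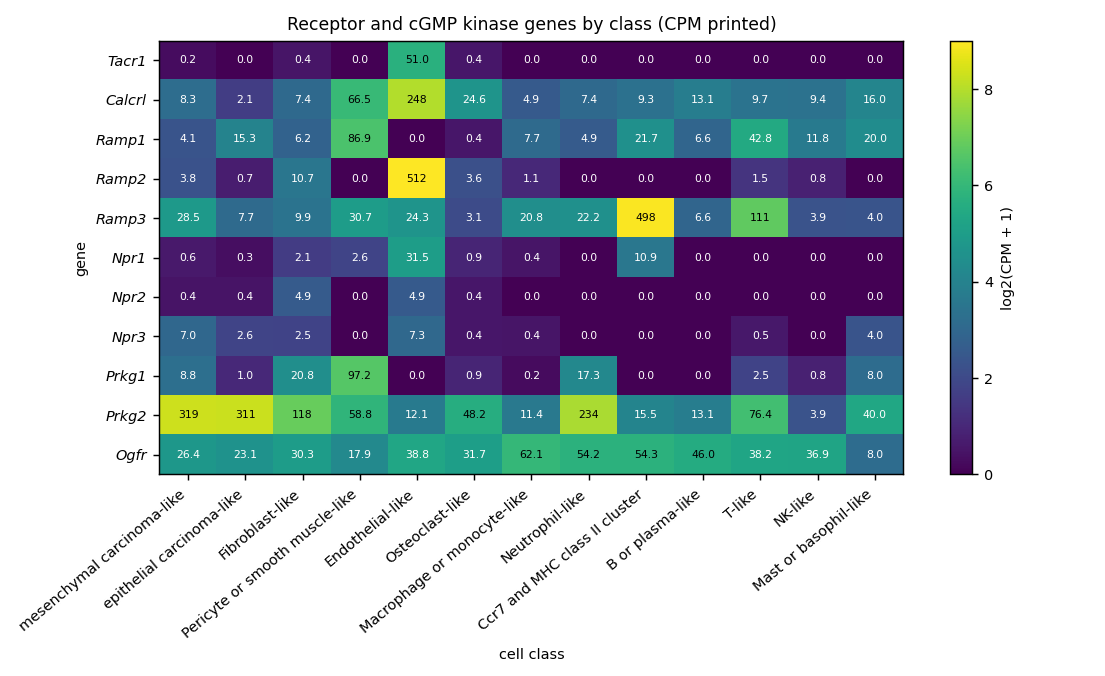
Level of receptor, partner and cyclic GMP kinase genes (rows) in 13 classes (columns), as CPM printed in each cell and as log2(CPM + 1) in colour. Tacr1, Calcrl, Ramp2 and Npr1 are highest in endothelial-like, Ramp1 and Prkg1 in pericyte-like, and Prkg2 in carcinoma-like cells.

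Downstream of natriuretic peptide receptors, Prkg2, a cyclic GMP dependent kinase, stood at 319 CPM (316 to 322) in mesenchymal and 311 CPM (298 to 323) in epithelial carcinoma-like cells, and at 118 CPM or less in every host class but neutrophil-like cells. Among carcinoma-like clusters it was highest in the Fibin and Lum cluster, 422 CPM. Prkg1, the kinase of smooth muscle, was highest in pericyte-like cells, 97.2 CPM. Of 7 cyclic GMP signalling genes, 6 reached 50 UMIs. Gucy1a1 and Gucy1b1, subunits of the nitric oxide receptor, had 68 of 69 and 91 of 96 UMIs in pericyte-like cells. Pde3a and Pde5a were also highest there, at 368 and 151 CPM. That class had 66 cells, and the share of all genes highest in it was not computed.

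Of 15 processing genes, 14 reached 50 UMIs. Cpe, which trims basic residues after cutting, stood at 480 CPM (465 to 496) in epithelial and 383 CPM (380 to 387) in mesenchymal carcinoma-like cells, and was highest in the Enpp2 and Ptn cluster, 796 CPM. Pam, which amidates substance P and calcitonin gene-related peptide, stood at 116 CPM in mesenchymal and 86.3 CPM in epithelial carcinoma-like cells. Its highest carcinoma-like cluster was the Fibin and Lum cluster, 166 CPM. Furin, which cuts the C-type natriuretic peptide precursor, was in every class, with 61.7 CPM in mesenchymal carcinoma-like cells. The neuroendocrine convertases were low in carcinoma-like cells: Pcsk2 stood at 2.26 CPM and Pcsk1 at 1.29 CPM in the mesenchymal state. Of 8 secretory granule genes, 4 reached 50 UMIs. In mesenchymal and epithelial carcinoma-like cells, Cadps stood at 14.8 and 2.35 CPM and Snap25 at 7.94 and 13.7 CPM. Syt1 stood at 2.09 and 0.652 CPM and Vgf at 1.17 and 2.22 CPM. The granule genes Chga, Chgb, Scg2 and Scg3 had 1, 6, 8 and 8 UMIs in all cells.

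The genes with the most similar pattern were sought among genes with at least 500 UMIs, by Pearson r of log2(CPM + 1) over 24 clusters that share library preparation and differ in depth. For Tac1 they were Wfdc13 (r = 0.890), Chrna1, Crabp1, Spp1 and Clmp (0.854). For Calcb they were Krt14 (0.923), Upk3bl, Krt7, Krt17 and S100a14 (0.900), and 3 of these are keratins. For Nppc they were Il11 (0.768), Ptprn, Hmgn3, Glp1r and Sdk1 (0.751), and for Penk Alkbh4 (0.717), Sdf4, Eif2ak1, Gmppb and Gpr107 (0.689). Between the precursor genes r was 0.645 for Nppc and Tac1 over 24 clusters and 0.685 over the 12 carcinoma-like clusters. For Calcb and Tac1 it was -0.116 over 24 clusters, with a Spearman rho of 0.191, and -0.879 over the 12.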

How the data were processed

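The deposited matrix holds whole UMI counts per gene and cell for all tumors together, unnormalized, as the authors wrote it with Cell Ranger 7.0.0 per the file headers. The submitters' processing notes also name Cell Ranger 7.1 and build mm10, and the series' design text Seurat 4.1.0. Filters on cells before deposit are not given in the sources used here. Reads were counted from 3′ ends, so UMIs are not compared between genes.

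The 13768 cells in which 500 or more genes were detected, and whose mitochondrial share was below 15%, were kept. Scrublet in scanpy 1.11.5, at an expected doublet rate of 6%, marked 21 cells (0.153%), far too few to have worked, and 267 scored at least 0.25. Doublets therefore remain. The cells were clustered with leidenalg 0.10.2 at resolution 1 (3000 variable genes, 40 components, 15 neighbours), leaving out 113 genes, the 4 precursors and the pathway lists. Clusters were named when their 10 leading genes by fold, 5 CPM added, held at least 2 markers of a class and at least 3 markers reached 2-fold. A cluster with a median doublet score over 0.2 was set apart. Short cluster names leave out the 4 precursors, which are themselves among the leading genes of some clusters. Clusters with Y-linked genes under 10 CPM and mesenchymal carcinoma markers were called mesenchymal carcinoma-like.

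UMIs were added up over the cells of a class and expressed as CPM (scipy 1.17.1 for exact intervals). Shares were taken after thinning each cell to 2000 UMIs, or to 1000 where T-like cells with and without Penk were set side by side, leaving out shallower cells. No p-value was computed, since the genes were chosen from these levels. The planned edgeR comparison of treated with vehicle tumors was not run, because barcode sets could not be tied to labelled tumors. The members, lists and markers were chosen with earlier results of these data known. Besides the 4 precursors, genes were named from fixed lists, along with the 5 genes most similar to each precursor. Of the listed genes with at least 50 UMIs only some are named, and a count is given for some below that. T cell genes and sets of leading genes were named after their values were seen. Level and thinning steps were tested on simulated counts.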

Additional observations from a re-analysis of the deposited data

How the results depend on the processing

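The highest class was the same in 8 of 8 alternative settings for Tac1, Calcb and Penk, and in 7 of 8 for Nppc; the exception is the stricter filter of at least 1000 genes and under 10% mitochondrial counts. Gates on single cells gave 268 CPM for Tac1, 294 for Nppc and 26.9 for Penk in mesenchymal carcinoma-like, 253 for Calcb in epithelial carcinoma-like and 118 for Penk in T-like cells. The same gates gave 49.0 CPM for Tac1 in epithelial carcinoma-like cells. Leiden resolution 2 gave 227 CPM for Tac1, 219.9 for Nppc and 457 for Calcb. The classes changed in size at that resolution. The epithelial class held 320 cells, against 688 in the main setting, and the mesenchymal class 9152, against 8788. Tac1 was at 238 CPM both with doublets kept and with scores of at least 0.25 left out, and the latter gave 111 CPM for Penk in T-like cells. The stricter filter gave 357 CPM for Calcb and 107 CPM for Penk in T-like cells. T-like cells without a Xist UMI and carcinoma-like cells with a Xist UMI, chosen after seeing the data, gave 119.7 CPM for Penk and 245 CPM for Nppc. Leaving out each barcode set in turn gave 151 to 270.1 CPM for Tac1, 203 to 246 for Nppc, 294 to 419 for Calcb, 18.7 to 21.5 for Penk in mesenchymal and 74.7 to 96.5 for Penk in T-like cells. Of the 5 genes most similar to each precursor, Spearman's rho gave 4 again for Tac1, 0 for Nppc, 2 for Calcb and 4 for Penk, and carcinoma-like clusters alone gave 1, 0, 1 and 0. The causes were not tested. No paired analysis was possible because the result comes from no test: vehicle and treated tumors could not be matched to barcode sets, and classes within a set are given side by side as a description, the genes having been chosen from these levels.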

Other observations

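Of 40 other peptide precursors, 12 reached 50 UMIs, and the 6 with the most UMIs are given here. Pthlh, which makes parathyroid hormone-related protein, had 27980 UMIs and stood at 244 CPM (233 to 255) in epithelial and 221 CPM (218 to 224) in mesenchymal carcinoma-like cells. It was highest in the hypoxia-related cluster led by Prl2c3, 349 CPM, and lowest in the Rps26 and Nefl cluster, 13.03 CPM. Apln, the apelin precursor, Nts, the neurotensin precursor, and Edn1, the endothelin precursor, were highest in endothelial-like cells, at 636, 570 and 194 CPM. Nts was also at 123 CPM in pericyte-like cells. Ucn2, a urocortin, was highest in fibroblast-like cells, at 30.5 CPM, and Crh, corticotropin-releasing hormone, stood at 11.6 CPM in mesenchymal and 0.652 CPM in epithelial carcinoma-like cells.

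All 11 genes of peptide breakdown reached 50 UMIs. Ece1, which cuts endothelin and several neuropeptides, was highest in endothelial-like cells, 481 CPM (416 to 552). Enpep, aminopeptidase A, had 43 of its 61 UMIs in pericyte-like cells. Mme, neprilysin, which degrades substance P, enkephalins and natriuretic peptides, stood at 7.55 CPM in mesenchymal and 5.21 CPM in epithelial carcinoma-like cells.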
